A study of Mus musculus with 23 samples.

Results

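The genes Olig1, Olig2, Nkx2-2, Pdgfra and Cspg4, which mark oligodendrocyte precursors in the brain, were followed across mouse medulloblastoma models, isolated granule neuron precursors (GNPs) and adult cerebellum. They were chosen as all probe sets annotated to 1 of these 5 symbols alone, which gave 8 of the 45101 probe sets of the array and 5 of the 18194 genes they measure. The study set tumours made by disrupting Ptch1, the receptor that restrains Sonic hedgehog signalling, with CRISPR/Cas9 beside established mouse models. Expression was measured once per sample on Affymetrix mouse genome arrays in 23 samples.

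The CRISPR-Ptch1 tumours of this series were 2 from wild-type embryos electroporated in utero with a plasmid carrying Cas9 and a Ptch1 guide (EP) and 1 from a Trp53-/- mouse transfected with such a plasmid as a neonate (TF). The study describes expression arrays of more tumours of both kinds. The 4 GTML tumours carry an inducible MycN and luciferase transgene driven through the Glt1 promoter. In the 5 MERP tumours, Atoh1-CreERT2 deletes a floxed Ptch1 (Ptch1 fl/fl) in cells that use the Atoh1 promoter, and the 4 Ptch1+/- tumours arose in mice that lack 1 allele in the germline. Normal tissue was represented by GNPs taken at postnatal days 4 to 7 (3 samples) and by whole adult cerebellum (4 samples). Strain is CD1 in all labels, whereas C57BL/6N is named in the methods for mice that were transfected. The study calls the profiles of other models and normal tissue published, whereas its methods describe RNA of tumours, GNPs and cerebellum as run at 1 facility. No array run, sex or tumour age is given per sample, so whether runs differed between groups was not tested.

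Oligodendrocyte precursors arise from neural progenitors under the transcription factors Olig2 and Olig1 and divide in response to platelet-derived growth factor (PDGF), which acts on the receptor encoded by Pdgfra. They carry the proteoglycan NG2, the product of Cspg4, and need Nkx2-2 when they turn into myelin-forming cells. None of these genes belongs to this cell type alone. Neural progenitors can express Olig2, neuronal lineages Nkx2-2, fibroblasts Pdgfra and pericytes Cspg4.

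Values are log2 units, in which a difference of 1 is a factor of 2, and 1 probe set cannot be compared in level with another. Array medians lay between 6 and 6.17 and lower quartiles between 4.40 and 4.61. Genes of GNP identity averaged 10.60 to 10.93 per array in CRISPR-Ptch1, 6.25 to 6.98 in GTML, 10.71 to 11.32 in MERP and 10.81 to 11.08 in Ptch1+/- tumours, against 10.63 to 10.75 in GNPs and 6.83 to 7.11 in adult cerebellum. The similar means of GTML tumours and adult cerebellum cover opposite differences, since 4 of the 8 genes were higher and 4 lower in GTML. Of all genes, 27.3% were higher and 27.9% lower in this pair. Zic1, a factor of the granule lineage, averaged 6.27 in GTML, against 13.94 in adult cerebellum, and Insm1, a factor of neuronal progenitors, 11.69 against 4.84. Ptch1 itself read 12.78 to 13.09 in CRISPR-Ptch1, 9.70 to 10.91 in GTML, 12.75 to 13.24 in MERP and 11.50 to 12.26 in Ptch1+/- tumours, against 11.67 to 12.04 in GNPs and 11.88 to 12 in adult cerebellum. The position of its probes relative to the edited or deleted sequence was not examined, so these values do not check the deletion. Mycn, the gene after which the GTML transgene is named, read 12.07 to 12.57 in CRISPR-Ptch1, 7.15 to 8.39 in GTML, 11.91 to 12.39 in MERP and 11.96 to 12.30 in Ptch1+/- tumours, against 11.67 to 11.79 in GNPs and 6.57 to 7.13 in adult cerebellum. It was thus low in the tumours labelled GTML. Whether its probes detect the transgene is not given in the sources used here, so these values do not check that label.

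Olig2 and Olig1 lie beside each other on mouse chromosome 16 (GRCm38.p6, RefSeq annotation), Olig2 at chr16:91225550-91228677 and Olig1 at chr16:91269769-91271939, with 41.1 kb and 0 annotated genes between them. Nkx2-2 lies on chromosome 2, Pdgfra on chromosome 5 and Cspg4 on chromosome 9. RefSeq windows around the start site were at hand for 4 of the 5 genes, all but Olig1. The 250 bases upstream of the start were searched on both strands for CCACCCA (reverse TGGGTGG), the core of the sequence that GLI factors of the hedgehog pathway bind, and for CANNTG, the E-box that basic helix-loop-helix factors such as Olig2 bind. The windows of Olig2, which differed between tumour models by a large factor, and of Cspg4, which differed least, are printed 5′ to 3′ on the plus strand with matches in capitals, from chr16:91225300-91225549 and chr9:56864854-56865103.

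Olig2: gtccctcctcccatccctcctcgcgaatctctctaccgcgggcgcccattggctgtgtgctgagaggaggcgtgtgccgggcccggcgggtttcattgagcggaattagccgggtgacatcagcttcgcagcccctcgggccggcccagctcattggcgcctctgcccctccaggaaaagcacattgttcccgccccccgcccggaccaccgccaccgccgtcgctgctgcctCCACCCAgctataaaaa

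Cspg4: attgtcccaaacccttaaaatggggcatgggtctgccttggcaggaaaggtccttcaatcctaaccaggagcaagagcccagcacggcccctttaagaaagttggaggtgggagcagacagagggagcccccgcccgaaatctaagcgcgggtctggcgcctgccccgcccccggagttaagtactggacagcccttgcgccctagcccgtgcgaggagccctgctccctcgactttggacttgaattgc

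The Olig2 window held 1 match to CCACCCA, 17 bases before the start (position -17), and none to CANNTG. The Cspg4 window held neither. The windows of Nkx2-2 and Pdgfra held 0 matches to CCACCCA each, with 3 and 1 to the E-box. The GLI core occurred in 8.1% of the 32851 windows of this length and the E-box in 66.2%, and a match here describes letters only.

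On the probe sets with the highest mean, Olig1, Olig2, Nkx2-2 and Pdgfra were lowest in GTML tumours by group mean, and Cspg4 in adult cerebellum. On the other probe sets GTML and adult cerebellum stood close together. They averaged 5.13 and 5.06 on Pdgfra 1438946_at, 5.05 and 5.11 on Pdgfra 1421916_at, and 6.3 and 6.33 on Cspg4 1423341_at. All 15 pairs of the 6 groups were compared with limma, with EP and TF tumours pooled as CRISPR-Ptch1, and a gene was called at a Benjamini-Hochberg adjusted p under 0.05 over all 18194 genes. Of the 75 values (5 genes in 15 pairs), 40 were called. The 5 pairs with GTML gave 20 of their 25 values, and the 10 pairs without it 20 of their 50. Over all genes, 43.3% of the values were called in the pairs with GTML and 36.1% in the pairs without it. Within the pairs with GTML, Cspg4 was called once and Nkx2-2 was not called against Ptch1+/- (-0.40). The study lists separate mice for its CRISPR-Ptch1 tumours, which number more than the 2 EP and 1 TF samples here. The sample titles do not link these samples to those mice. For the other groups the labels do not say that samples came from separate animals, so p-values measure the spread between these samples, which may there be technical.

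**Figure D1:**
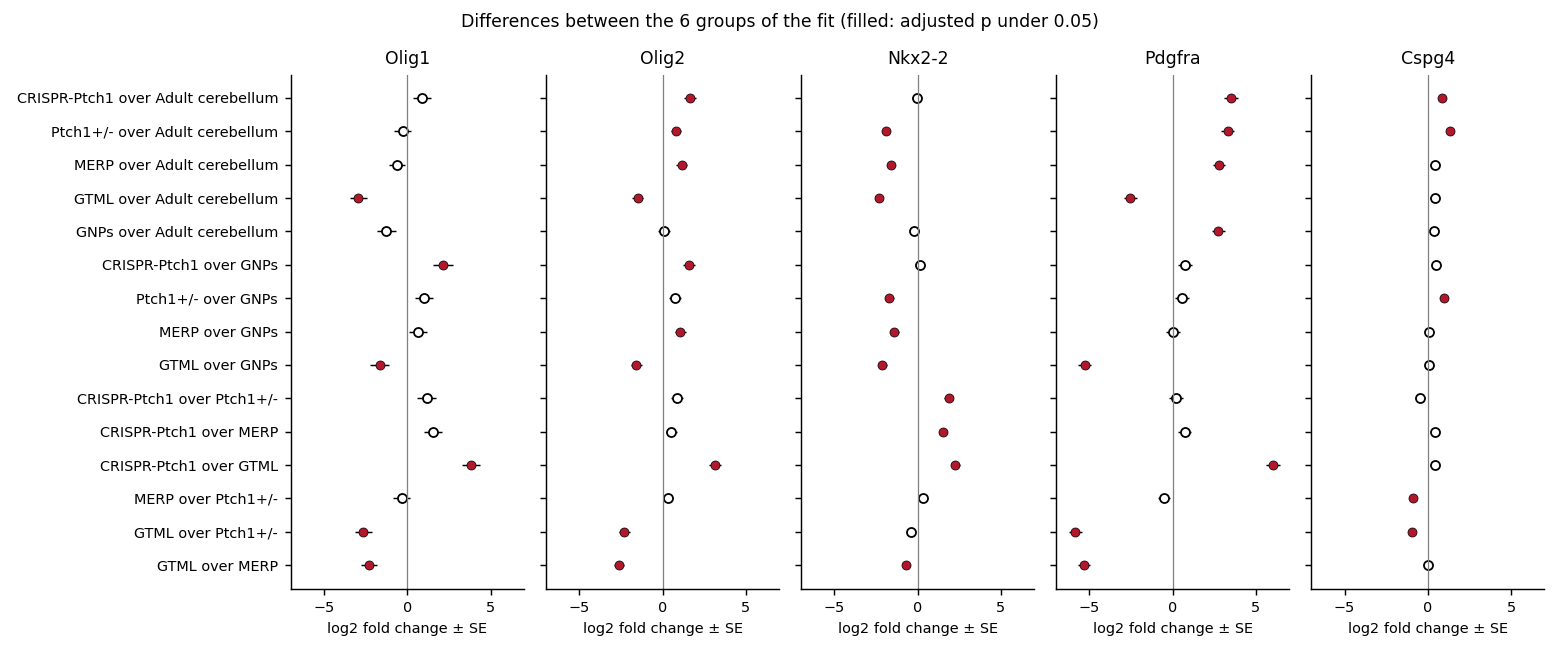
Log2 fold change ± SE (horizontal axis) of each gene in the 15 pairs of groups, named as group over group; filled points passed an adjusted p of 0.05 and open points did not. The points farthest from 0 are those of Pdgfra in pairs with GTML, such as 6.03 for CRISPR-Ptch1 over GTML and -5.84 for GTML over Ptch1+/-.

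Counts of members are given beside the share of all 18194 genes called in the same direction. Against adult cerebellum, 3 of the 5 genes were higher in CRISPR-Ptch1 tumours (26.4% of all genes were higher and 21.1% lower) and 4 were lower in GTML (27.3% higher and 27.9% lower). In MERP 2 were higher and 1 lower (30.8% and 24.9% of all genes), in Ptch1+/- tumours 3 were higher and 1 lower (22.4% and 30.8%), and in GNPs 1 was higher (29.1% higher and 21% lower). Against GNPs, 2 were higher in CRISPR-Ptch1 tumours (5.79% of all genes were higher and 7.95% lower) and 4 were lower in GTML (16.1% higher and 25.7% lower). In MERP 1 was higher and 1 lower than in GNPs (7.12% and 12.1% of all genes), and in Ptch1+/- tumours likewise (9.4% and 29.9%).

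Among tumours, 4 genes were higher in CRISPR-Ptch1 than in GTML (22.7% of all genes were higher and 14.1% lower), 1 was higher than in MERP (8.2% higher and 5.15% lower) and 1 than in Ptch1+/- (28.5% higher and 8.33% lower). In GTML, 4 were lower than in MERP (15.8% of all genes were higher and 23.4% lower) and 4 lower than in Ptch1+/- (27.1% higher and 16.6% lower), and in MERP 1 was lower than in Ptch1+/- (25.9% higher and 6.08% lower). The 4 of 5 in each pair with GTML lay above the share of all genes in that direction, but were not tested against it. In GTML over adult cerebellum, Pdgfra was called on only 1 of its 3 probe sets (1421917_at). In the remaining pairs the counts in 1 direction were at most 3 of 5. The 5 genes are few, vary partly together and were chosen with earlier results of these data known. None of these counts was therefore set apart from the background.

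The share of higher among all genes called depended on the scaling of the arrays. With the gene median of every array set to the same value, an alternative added once the data had been seen, the share of calls that were higher moved by over 10 points in 12 of the 15 pairs. Relative to adult cerebellum it was 43.2% in place of 55.6% in CRISPR-Ptch1, 62.9% in place of 49.4% in GTML, 64.2% in place of 42% in Ptch1+/- tumours and 41.8% in place of 58.1% in GNPs. Relative to GNPs it was 78.2% in place of 38.6% in GTML, 79% in place of 37.1% in MERP and 80.5% in place of 23.9% in Ptch1+/- tumours. For CRISPR-Ptch1 it was 22% in place of 61.7% over GTML, 23% in place of 61.4% over MERP and 20.7% in place of 77.4% over Ptch1+/-. For GTML over MERP it was 59.3% in place of 40.2%, and for MERP over Ptch1+/- 40.4% in place of 81%. The median fold change of all genes shifted with it, to between -0.36 and 0.44 across the pairs, against between -0.10 and 0.14 without centring. No member changed its sign in a called pair under this centring, and the called pairs numbered 8 for Olig1, 11 for Olig2, 9 for Nkx2-2, 10 for Pdgfra and 7 for Cspg4, against 6, 10, 10, 9 and 5 without it.

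Olig1, a basic helix-loop-helix factor of the oligodendrocyte lineage, was highest in CRISPR-Ptch1 tumours and lowest in GTML. It read 11.68 and 11.17 in the EP tumours and 11.6 in the TF tumour. The GTML tumours had 8.1, 5.29, 8.08 and 9.19, the MERP tumours 10.54, 10.16, 9.61, 9.35 and 10.19, and the Ptch1+/- tumours 9.69, 10.95, 9.77 and 10.88. GNPs had 9.3, 9.32 and 9.36, and adult cerebella 10.76, 10.32, 10.63 and 10.7. The lowest CRISPR-Ptch1 value stood above every other array, and the highest GTML value lay below every array of the other groups, although GTML replicate 2 was 2.79 under the next GTML tumour.

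Olig1 was 14.13-fold higher in CRISPR-Ptch1 than in GTML tumours (log2 3.82, SE 0.56, limma adjusted p = 1.59e-05), and 8.16-fold without GTML replicate 2 (log2 3.03, adjusted p = 1.01e-06). It was higher in CRISPR-Ptch1 tumours than in GNPs by 2.16 (SE 0.60, adjusted p = 0.0177). In GTML it was lower than in adult cerebellum (-2.94, adjusted p = 4.69e-05), Ptch1+/- (-2.66, adjusted p = 0.000243), MERP (-2.31, adjusted p = 0.000713) and GNPs (-1.66, adjusted p = 0.0209). Without GTML replicate 2 these were -2.15, -1.87, -1.51 and -0.87. In descending order the means ran CRISPR-Ptch1 (11.48 ± 0.28, SD, n = 3), adult cerebellum (10.6 ± 0.19, n = 4), Ptch1+/- (10.32 ± 0.68, n = 4), MERP (9.97 ± 0.48, n = 5), GNPs (9.33 ± 0.03, n = 3) and GTML (7.66 ± 1.67, n = 4), and only the last step between neighbours passed the test. CRISPR-Ptch1 over adult cerebellum was 0.88 (SE 0.56, adjusted p = 0.214) and over MERP 1.51 (SE 0.53, adjusted p = 0.0645). Without GTML replicate 2, these became calls (adjusted p = 0.0296 and 0.00294), CRISPR-Ptch1 over Ptch1+/- did too (1.16, adjusted p = 0.00745), as did GNPs over adult cerebellum (-1.27, adjusted p = 0.00231, and 0.0334 without GTML replicate 4) and Ptch1+/- over GNPs (0.99, adjusted p = 0.0183), and GTML below GNPs no longer passed (-0.87, adjusted p = 0.0518). That call was also lost without any 1 of the 3 GNP arrays (adjusted p between 0.0509 and 0.0548), and CRISPR-Ptch1 over GNPs was lost without EP replicate 1 (adjusted p = 0.0658) or GNP replicate 1 (adjusted p = 0.0542). The fit shares 1 spread over the 6 groups, and the SD of Olig1 was largest in GTML. With only the 2 groups compared in the fit, GTML below GNPs was not called (limma adjusted p = 0.127). In such fits CRISPR-Ptch1 was called over adult cerebellum (0.00146), MERP (0.0162) and Ptch1+/- (0.0397). GNPs (1.37e-06) and MERP (0.0275) were called below adult cerebellum, and Ptch1+/- above GNPs (0.0396). In whole tissue, fewer cells of a type and less RNA per cell cannot be told apart, here and for every gene that follows.

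**Figure D2:**
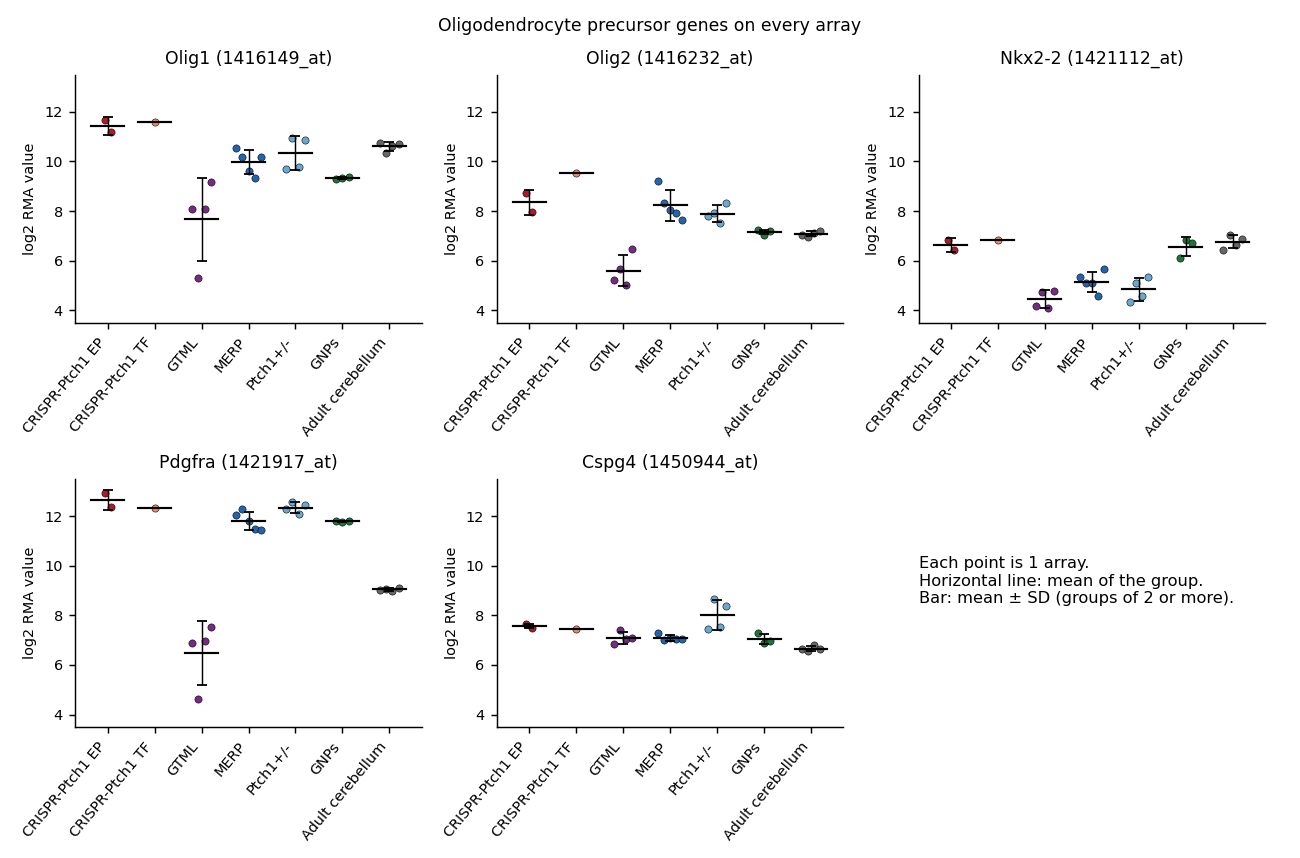
Log2 RMA value (vertical axis) of each gene on every array by group, with the group mean as a line and the SD as a bar. Each gene is shown on its probe set with the highest mean. In GTML, Olig1, Olig2 and Pdgfra sit below all other groups, whereas Nkx2-2 in CRISPR-Ptch1 tumours sits at the level of GNPs and adult cerebellum.

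Olig2, the factor that specifies motor neurons and oligodendrocytes in the spinal cord and keeps neural progenitors dividing, was higher in the Ptch1-based tumours than in adult cerebellum and lower in GTML. The EP tumours had 8.71 and 7.98 and the TF tumour 9.55. Values in GTML were 5.24, 5.65, 5.03 and 6.46, in MERP 9.22, 8.34, 8.03, 7.91 and 7.62 and in Ptch1+/- tumours 7.79, 7.91, 7.51 and 8.33. GNPs read 7.22, 7.05 and 7.21 and adult cerebella 7.04, 6.96, 7.12 and 7.19. Every CRISPR-Ptch1, MERP and Ptch1+/- tumour was above every GNP and adult sample, and every GTML tumour was below them.

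The difference from adult cerebellum was 1.67 (3.19-fold, SE 0.36, adjusted p = 0.000487) in CRISPR-Ptch1 tumours, 1.15 (adjusted p = 0.00344) in MERP, 0.81 (adjusted p = 0.0439) in Ptch1+/- and -1.48 (adjusted p = 0.000584) in GTML. The Ptch1+/- call was lost in 12 of the 23 fits that left out 1 array, those without EP replicate 1, Ptch1+/- replicate 1, 2 or 4, MERP replicate 2, or any GNP or adult array (adjusted p between 0.0504 and 0.134). Against GNPs, Olig2 was higher in CRISPR-Ptch1 tumours by 1.59 (adjusted p = 0.00631) and in MERP by 1.06 (adjusted p = 0.0315), and lower in GTML (-1.57, adjusted p = 0.00124). The MERP call was lost without MERP replicate 1 (0.81, adjusted p = 0.0713), without MERP replicate 2 (adjusted p = 0.0563) and without any of the 3 GNP arrays (adjusted p between 0.0744 and 0.107). Among tumours it was 8.9-fold higher in CRISPR-Ptch1 than in GTML (3.15, adjusted p = 5.54e-07), and in GTML it was lower than in MERP (-2.63, adjusted p = 8.06e-07) and Ptch1+/- (-2.29, adjusted p = 7.82e-06). CRISPR-Ptch1 (8.75 ± 0.79), MERP (8.22 ± 0.61) and Ptch1+/- (7.88 ± 0.34) overlapped and did not pass the test against each other, although CRISPR-Ptch1 over Ptch1+/- (0.86, adjusted p = 0.0633) passed without EP replicate 2, GTML replicate 4, Ptch1+/- replicate 4 or MERP replicate 1 (adjusted p between 0.014 and 0.0469). GNPs (7.16 ± 0.09) and adult cerebellum (7.08 ± 0.1) differed by 0.08 (SE 0.36, adjusted p = 0.874).

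Nkx2-2, a homeodomain factor downstream of hedgehog signalling in the ventral neural tube and needed for oligodendrocyte maturation, split the Ptch1-based tumours. It had 6.82 and 6.44 in the EP tumours and 6.84 in the TF tumour. GTML tumours had 4.18, 4.74, 4.09 and 4.78, MERP tumours 5.36, 5.1, 5.11, 4.57 and 5.66 and Ptch1+/- tumours 4.34, 5.1, 4.59 and 5.36. In GNPs it read 6.12, 6.85 and 6.7 and in adult cerebella 6.45, 7.04, 6.64 and 6.89. The CRISPR-Ptch1 values lay within the span of the GNP and adult samples, and all 13 other tumours lay below all of these.

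Nkx2-2 was higher in CRISPR-Ptch1 tumours than in Ptch1+/- by 1.85 (3.62-fold, SE 0.26, adjusted p = 2.2e-05), than in MERP by 1.54 (SE 0.25, adjusted p = 0.00058) and than in GTML by 2.26 (SE 0.26, adjusted p = 8.24e-07). It was the 1 gene of the 5 called in both CRISPR-Ptch1 over MERP and CRISPR-Ptch1 over Ptch1+/- on the probe sets with the highest mean. Markers of other cells moved in the same pairs. Of all genes, 8.2% were higher and 5.15% lower in CRISPR-Ptch1 than in MERP, and 28.5% and 8.33% than in Ptch1+/-. Genes of microglia and macrophages were higher in CRISPR-Ptch1 in 9 of 10 against MERP and in 9 of 10 against Ptch1+/-, and averaged 8.88 to 10.03 per array in CRISPR-Ptch1, 7.44 to 8.24 in MERP and 6.88 to 8.76 in Ptch1+/- tumours. Genes of mature granule neurons were higher in 2 of 5 against MERP and 5 of 5 against Ptch1+/- (8.04 to 10.71, 6.73 to 7.38 and 6.56 to 7.28 in the same order of groups). Genes of astrocytes and Bergmann glia were higher in 4 of 10 against MERP, and 6 were higher and 1 lower against Ptch1+/- (10.04 to 10.46, 8.43 to 9.58 and 8.37 to 9.3). The part of these cells in the level of Nkx2-2 was not tested. CRISPR-Ptch1 tumours (6.7 ± 0.23) differed from GNPs (6.56 ± 0.39) by 0.15 (SE 0.28, adjusted p = 0.815) and from adult cerebellum (6.76 ± 0.26) by -0.05 (SE 0.26, adjusted p = 0.896). Below adult cerebellum, MERP stood by -1.59 (adjusted p = 3.77e-06), Ptch1+/- by -1.91 (adjusted p = 7.12e-07) and GTML by -2.31 (adjusted p = 4.22e-08), and the same groups were below GNPs by -1.39, -1.71 and -2.11. GTML (4.45 ± 0.36) was also called below MERP (5.16 ± 0.4) by -0.72 (adjusted p = 0.0171), a call lost without GTML replicate 1 (adjusted p = 0.0589), GTML replicate 3 (0.0678) or MERP replicate 5 (0.0514). Ptch1+/- (4.85 ± 0.46) did not pass the test against either. The value lay under the lower quartile of its array in 2 of 4 GTML, 1 of 5 MERP and 1 of 4 Ptch1+/- tumours.

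Pdgfra, the PDGF receptor of oligodendrocyte precursors, had the widest range of the 5 genes on the probe sets with the highest mean. On the probe set with the highest mean (1421917_at), the EP tumours had 12.92 and 12.36 and the TF tumour 12.32. GTML tumours read 6.87, 4.62, 6.98 and 7.54, MERP tumours 12.05, 12.28, 11.79, 11.47 and 11.45 and Ptch1+/- tumours 12.27, 12.58, 12.09 and 12.44. GNPs had 11.82, 11.78 and 11.79, and adult cerebella 9.01, 9.08, 8.99 and 9.11. GNPs and the 3 Ptch1-based models formed 1 high level, adult cerebellum stood below it and GTML below adult cerebellum, with no overlap between these 3 levels.

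CRISPR-Ptch1 tumours had 65.43-fold more Pdgfra signal than GTML on this probe set (6.03, SE 0.41, adjusted p = 4.36e-10), and 42.3-fold without GTML replicate 2 (5.40), whose 4.62 lay near the lower quartile of the arrays. The same comparison was 30.4-fold on 1438946_at (4.93) and 6.74-fold on 1421916_at (2.75). GTML was below MERP by -5.31 (adjusted p = 2.3e-10), below Ptch1+/- by -5.84 (adjusted p = 1.18e-10) and below GNPs by -5.29 (adjusted p = 1.86e-09), which without GTML replicate 2 were -4.68, -5.21 and -4.67. Against adult cerebellum, Pdgfra was higher in CRISPR-Ptch1 tumours by 3.49 (11.2-fold, adjusted p = 4.03e-07), in MERP by 2.76 (adjusted p = 1.01e-06), in Ptch1+/- by 3.30 (adjusted p = 1.86e-07) and in GNPs by 2.75 (adjusted p = 8.12e-06). The means of CRISPR-Ptch1 (12.53 ± 0.33), Ptch1+/- (12.34 ± 0.21), MERP (11.81 ± 0.36) and GNPs (11.79 ± 0.02) did not pass the test between any pair of them. Without GTML replicate 2, 4 of these pairs did: CRISPR-Ptch1 over GNPs (0.74, adjusted p = 0.0201) and over MERP (0.73, adjusted p = 0.0138), Ptch1+/- over GNPs (0.55, adjusted p = 0.0307) and MERP over Ptch1+/- (-0.54, adjusted p = 0.021).

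All 3 Pdgfra probe sets placed GNPs and the 3 Ptch1-based models above GTML and adult cerebellum. They differed in how GTML stood to adult cerebellum and in pairs within the high level. On 1438946_at, CRISPR-Ptch1 tumours averaged 10.06 ± 0.38, GTML 5.13 ± 0.36, MERP 10.29 ± 0.62 and Ptch1+/- tumours 10.93 ± 0.18, against 10.61 ± 0.42 in GNPs and 5.06 ± 0.17 in adult cerebellum. On 1421916_at they averaged 7.8 ± 0.34, 5.05 ± 0.16, 7.28 ± 0.56 and 8.06 ± 0.21, against 7.56 ± 0.29 in GNPs and 5.11 ± 0.12 in adult cerebellum. GTML over adult cerebellum was -2.55 on 1421917_at (adjusted p = 6.41e-06), 0.08 on 1438946_at (adjusted p = 0.84) and -0.06 on 1421916_at (adjusted p = 0.855), so the call rests on the first probe set, where it was -1.92 without GTML replicate 2 (adjusted p = 4.94e-08). On 1438946_at, CRISPR-Ptch1 tumours were below Ptch1+/- by -0.88 (adjusted p = 0.0195), a sign opposite to that on 1421917_at (0.19, adjusted p = 0.766). MERP over Ptch1+/- was called on 1421916_at (-0.78, limma adjusted p = 0.00747) and with the mean of the probe sets (-0.65, adjusted p = 0.0239). It was not called on 1438946_at (-0.64, adjusted p = 0.0556) or on 1421917_at (-0.54, adjusted p = 0.286).

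**Figure D3:**
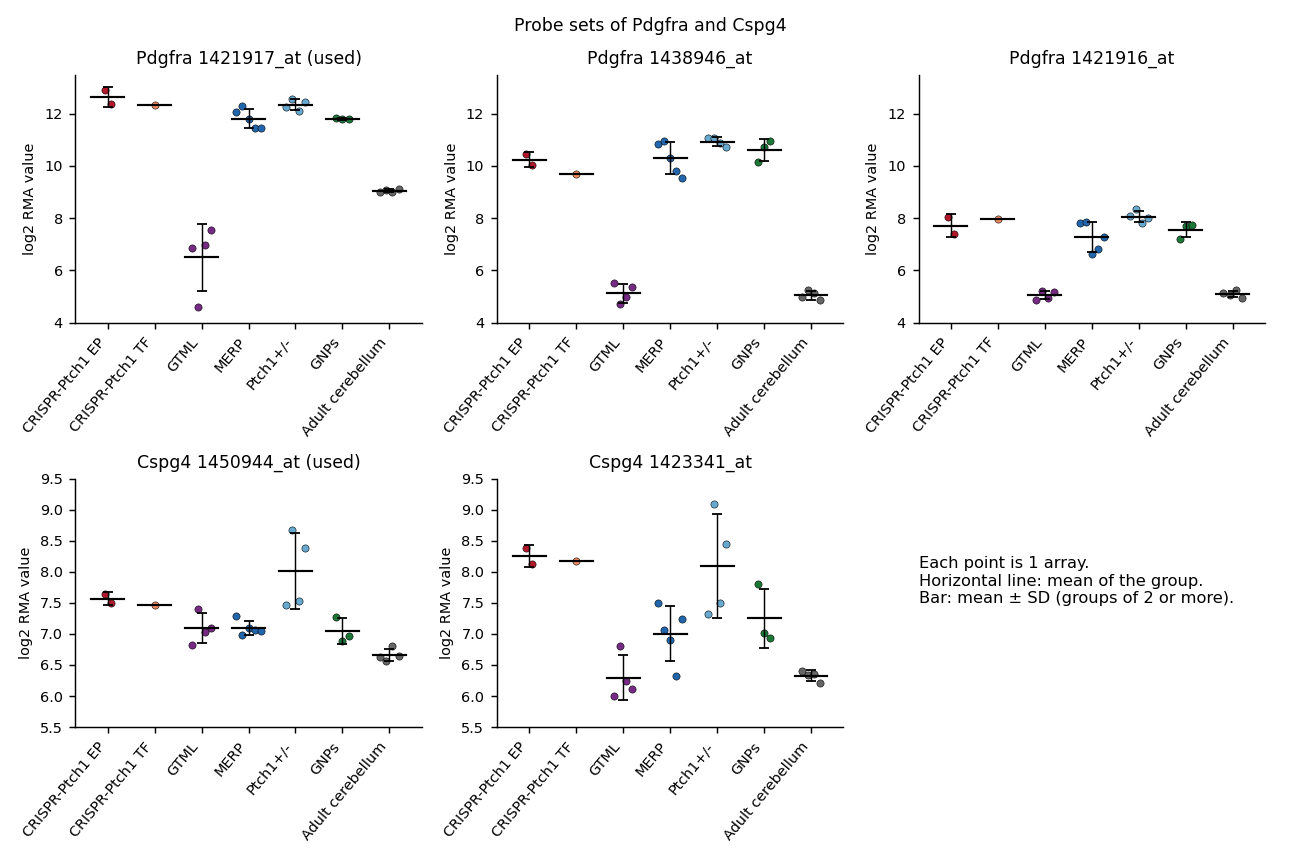
Log2 RMA value (vertical axis) on every array for the 3 probe sets of Pdgfra and the 2 of Cspg4, by group, with mean and SD. Adult cerebellum reads 9.05 on Pdgfra 1421917_at and near 5.1 on the other Pdgfra probe sets, at the level of GTML.

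Cspg4, the gene of NG2, varied least of the 5. Its mean was highest in Ptch1+/- tumours on 1450944_at, whereas on its other probe set it was 8.23 in CRISPR-Ptch1 and 8.09 in Ptch1+/- tumours (difference 0.13, adjusted p = 0.798). On 1450944_at it had 7.64 and 7.5 in the EP tumours and 7.47 in the TF tumour. GTML tumours read 6.83, 7.41, 7.03 and 7.1, MERP tumours 7.29, 6.99, 7.09, 7.06 and 7.05 and Ptch1+/- tumours 7.47, 8.67, 7.53 and 8.39. GNPs had 7.28, 6.88 and 6.97, and adult cerebella 6.63, 6.57, 6.8 and 6.65. Ptch1+/- replicates 2 and 4 stood above every other array, and the other 2 Ptch1+/- tumours were at the level of the CRISPR-Ptch1 tumours.

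Cspg4 was higher in Ptch1+/- tumours (8.01 ± 0.61) than in adult cerebellum (6.66 ± 0.1) by 1.35 (2.55-fold, SE 0.20, adjusted p = 4.77e-06) and than in GNPs (7.04 ± 0.21) by 0.97 (adjusted p = 0.00101). It was lower in GTML (7.09 ± 0.24) and in MERP (7.1 ± 0.11) than in Ptch1+/- tumours, by -0.92 in each (adjusted p = 0.00065 for GTML and 0.000761 for MERP). CRISPR-Ptch1 tumours (7.53 ± 0.09) were above adult cerebellum by 0.87 (adjusted p = 0.00179) and did not pass against the other groups (-0.48 against Ptch1+/-, adjusted p = 0.0859, and 0.0136 or 0.0226 without Ptch1+/- replicate 1 or 3). With the second probe set, 1423341_at, they were also above GTML (8.23 ± 0.13 against 6.3 ± 0.36, adjusted p = 0.000142) and above MERP (7.01 ± 0.44, adjusted p = 0.0176), and GTML was below GNPs (7.25 ± 0.48) by -0.95 (adjusted p = 0.0285), a pair that differed by 0.05 on 1450944_at. GNPs were above adult cerebellum by 0.92 on 1423341_at (limma adjusted p = 0.031), against 0.38 on 1450944_at (adjusted p = 0.154). Ptch1+/- replicates 2 and 4 were again the highest of their group on 1423341_at (9.1 and 8.45). Pericyte and smooth muscle genes, 10 measured, averaged 7.33 to 8.10 per array in CRISPR-Ptch1, 7.70 to 8.50 in GTML, 6.55 to 7.54 in MERP and 6.54 to 7.21 in Ptch1+/- tumours. In GNPs they averaged 8.59 to 8.81 and in adult cerebellum 8.12 to 8.13. The part of pericytes in the level of Cspg4 was not tested.

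The 5 genes differed in how widely they ranged on the probe sets with the highest mean. Group means spanned 6.03 for Pdgfra, 3.82 for Olig1, 3.15 for Olig2, 2.31 for Nkx2-2 and 1.35 for Cspg4, with a median of 1.02 over all genes. These spans were larger than those of 99.2% of genes for Pdgfra, 94.9% for Olig1, 91.4% for Olig2, 83.4% for Nkx2-2 and 63.0% for Cspg4. On Pdgfra 1421916_at the group means ran only from 5.05 in GTML to 8.06 in Ptch1+/- tumours, a narrower span than that of Olig1 or Olig2. Over the 23 arrays, Pearson's r was 0.84 between Olig2 and Pdgfra, 0.75 between Olig1 and Olig2, 0.71 between Olig1 and Pdgfra and -0.24 between Nkx2-2 and Cspg4. These coefficients describe arrays that share groups and are not tests.

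With the mean of each group taken off (22 arrays, the TF tumour left out), r between Olig1 and Pdgfra was 0.92, that between Olig1 and Olig2 0.38 and that between Olig2 and Pdgfra 0.31. GTML replicate 2 weighed heavily in all of these. Without it (21 arrays), r was 0.70 between Olig1 and Pdgfra, 0.73 between Olig1 and Olig2 and 0.79 between Olig2 and Pdgfra, and all 10 pairs of the 5 genes lay between 0.41 and 0.79, Nkx2-2 with Cspg4 at 0.41. That tumour had the lowest values of its group for Olig1 and Pdgfra and the second-highest for Olig2, and its mean over 10 genes of astrocytes and Bergmann glia was 6.34, against 8.72 to 9.05 in the other 3.

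**Figure D4:**
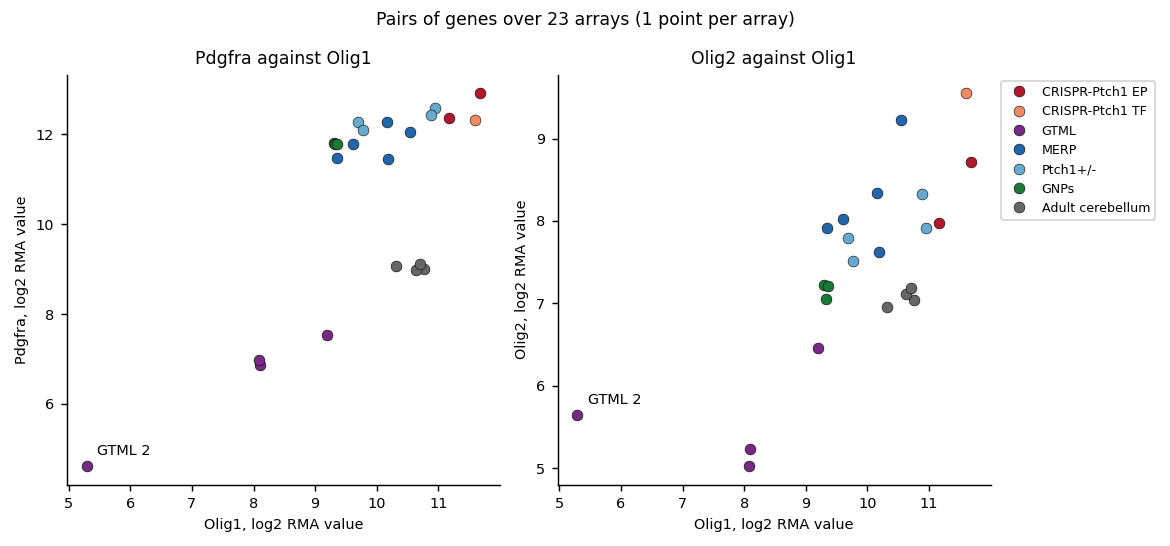
Log2 RMA values of Pdgfra and of Olig2 (vertical axes) against Olig1 (horizontal axis), 1 point per array, coloured by group. Adult cerebella combine high Olig1 (10.32 to 10.76) with lower Pdgfra (8.99 to 9.11), and GTML replicate 2 is at 5.29 for Olig1 and 4.62 for Pdgfra.

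Each gene had its own nearest genes by r over the 23 arrays. They were Etv5 (0.909), Bcan (0.904), Spred2 (0.9), Lhfpl3 (0.894) and Prex1 (0.894) for Olig1, and Rftn2 (0.932), N4bp3 (0.923), Sox18 (0.92), Rgma (0.916) and Sox1 (0.914) for Olig2. For Pdgfra they were Robo1 (0.974), E130114P18Rik (0.973), Sox9 (0.967), Egfr (0.965) and Tgfb2 (0.965). Nkx2-2 was closest to Cobll1 (0.912), Hsdl2 (0.908), Gprin2 (0.907), Sphk1 (0.903) and Sft2d2 (0.9), and Cspg4, with weaker likeness, to Pcdhb5 (0.803), Luc7l2 (0.793), Pou3f2 (0.788), Ifi203 (0.787) and Matn4 (0.78). Within groups the closest genes were Anks1b for Olig1 (0.953), Sox5 for Olig2 (0.839), Gmfb for Nkx2-2 (0.871), Nacc2 for Pdgfra (0.937) and St6gal2 for Cspg4 (0.851). Without GTML replicate 2 the first of these fell to 0.85 and that of Nacc2 to 0.75, while Lhfpl3 over all arrays reached 0.97 with Olig1.

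Of the PDGF ligands, Pdgfa was, like the receptor, higher in the Ptch1-based tumours than in GTML. It was lower in CRISPR-Ptch1 than in Ptch1+/- tumours by -0.57 (limma adjusted p = 0.0493). Pdgfa lay between 10.24 and 10.96 in CRISPR-Ptch1, 8.13 and 8.36 in GTML, 10.06 and 11.44 in MERP and 11.1 and 11.5 in Ptch1+/- tumours, against 8.95 to 8.98 in GNPs and 9.01 to 9.13 in adult cerebellum. It was higher than in GNPs by 1.75 (adjusted p = 2.12e-05) in CRISPR-Ptch1, 2.03 (adjusted p = 2.97e-07) in MERP and 2.32 (adjusted p = 6.97e-08) in Ptch1+/- tumours, and lower in GTML (-0.69, adjusted p = 0.0168). GNPs thus paired the high Pdgfra level with a Pdgfa level at that of adult cerebellum (-0.08, adjusted p = 0.811).

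Pdgfc, another ligand of this receptor, was higher in GNPs than in adult cerebellum by 4.37 (adjusted p = 3.89e-10) and lower than in GNPs by -3.22 in CRISPR-Ptch1, -3.91 in GTML, -2.59 in MERP and -3.55 in Ptch1+/- tumours. Pdgfrb, the second PDGF receptor and a pericyte gene, was higher in GTML than in MERP by 2.53 (adjusted p = 3.15e-05) and than in Ptch1+/- tumours by 2.31 (adjusted p = 0.000133), the reverse of Pdgfra. Pdgfd, a ligand of that receptor, was lower than in adult cerebellum in each tumour group, from -2.61 in CRISPR-Ptch1 to -3.98 in MERP. Of the 5 genes of this list (Pdgfa to Pdgfd and Pdgfrb), 3 were lower than in GNPs in CRISPR-Ptch1, 5 in GTML, 4 in MERP and 4 in Ptch1+/- tumours. Of all genes, 7.95%, 25.7%, 12.1% and 29.9% were lower in the same order. The medians of the list were -1.01, -1.32, -2.29 and -2.04, beside medians between -0.10 and 0.05 over all genes. Meningeal and fibroblast genes, whose cells also express Pdgfra, averaged 9.77 to 10.16 per array in GNPs and 7.83 to 7.95 in adult cerebellum. All 10 were higher in GNPs (29.1% of all genes were), with Col3a1 at 4.53 (adjusted p = 3.47e-07) and Lum at 2.74 (adjusted p = 4.17e-05). Their part in the GNP level of Pdgfra and Pdgfc was not tested. In the tumours these genes averaged 7.29 to 8.30 in CRISPR-Ptch1, 6.73 to 7.79 in GTML, 6.57 to 7.52 in MERP and 6.28 to 7.07 in Ptch1+/-. Against adult cerebellum, 1 of the 10 was higher and 2 lower in CRISPR-Ptch1 tumours, 3 were higher and 4 lower in GTML, 0 higher and 6 lower in MERP, and 0 higher and 5 lower in Ptch1+/- tumours (limma; at an unadjusted p under 0.05, 0 were higher in MERP and 0 in Ptch1+/-). The 1 higher in CRISPR-Ptch1 was Col3a1 (1.65, adjusted p = 0.0148). Of all genes, 26.4% were higher and 21.1% lower in CRISPR-Ptch1, 27.3% and 27.9% in GTML, 30.8% and 24.9% in MERP, and 22.4% and 30.8% in Ptch1+/- tumours. The counts for CRISPR-Ptch1 and GTML are thus near the background. The part of meningeal cells and fibroblasts in the tumours' Pdgfra level was not tested.

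Other genes of oligodendrocyte precursors, of which 15 of 18 were measured, had their highest mean in CRISPR-Ptch1 tumours (8.57) and their lowest in GTML (6.65). Per array they averaged 8.33 to 8.72 in CRISPR-Ptch1, 6.27 to 7.05 in GTML, 7.29 to 7.97 in MERP and 7.41 to 8.5 in Ptch1+/- tumours. The CRISPR-Ptch1 and Ptch1+/- arrays thus overlapped. Of these 15, 12 were higher and 1 lower in CRISPR-Ptch1 than in GTML tumours (median 2.15, against 0.01 over all genes), and 9 were higher and 0 lower than in MERP (median 1.08, against -0.02; 1 was lower at an unadjusted limma p under 0.05). Against Ptch1+/-, 5 were higher and 1 lower (median 0.57, against 0.12). The shares of all genes called higher were 22.7% over GTML, 8.2% over MERP and 28.5% over Ptch1+/-. Myelin genes were higher in CRISPR-Ptch1 tumours in 5 of 12 against MERP and 5 of 12 against Ptch1+/-, beside the microglia and astrocyte counts given with Nkx2-2, and the part of these cells in the precursor genes was not tested. Gpr17, a receptor of committed precursors, was higher in CRISPR-Ptch1 than in GTML by 3.92 (adjusted p = 3.91e-07) and Bcas1 by 3.51 (adjusted p = 2.5e-07). Pcdh15, a protocadherin, ran the other way (-1.68, adjusted p = 0.00122), and Enpp6 gave -0.43 (adjusted p = 0.35). Against MERP the extremes were the matrix protein gene Tnr (2.44, adjusted p = 0.00349) and Gpr17 (2.21, adjusted p = 0.00176) at the top, and Bcas1 (-0.36, adjusted p = 0.556) and C1ql1 (-0.86, adjusted p = 0.151) at the bottom.

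In GTML, 11 of the 15 were lower than in adult cerebellum and 1 was higher (median -1.35, against 0.04 over all genes), with Bcas1 at -3.38 (adjusted p = 2.74e-08) and Sox8, a relative of Sox10, at -3.34 (adjusted p = 4.7e-09). Pcdh15 was the 1 that was higher (3.27, adjusted p = 4.16e-08), and C1ql1 stood at 0.00 (adjusted p = 0.996). CRISPR-Ptch1 tumours had 7 higher and 1 lower than adult cerebellum (median 0.75), MERP 3 higher and 7 lower (median -0.21) and Ptch1+/- 5 higher and 6 lower (median -0.52). Of all genes, 27.3% were higher and 27.9% lower in GTML, 26.4% and 21.1% in CRISPR-Ptch1, 30.8% and 24.9% in MERP and 22.4% and 30.8% in Ptch1+/- tumours. Several of these counts of the 15 genes are thus near the background. C1ql1, a secreted C1q-like protein, was the highest of the list in the 3 Ptch1-based groups, at 2.56 in CRISPR-Ptch1, 3.43 in MERP and 2.65 in Ptch1+/- tumours.

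Genes of myelin and mature oligodendrocytes did not follow Olig2 or Pdgfra, which were higher in the Ptch1-based tumours than in adult cerebellum. Nkx2-2, like the myelin genes, was lower than in adult cerebellum in MERP, Ptch1+/- and GTML tumours (-1.59, -1.91 and -2.31). In GTML, 4 of the 5 genes were lower. All 12 myelin genes measured of 14 were lower in each tumour group than in adult cerebellum, with medians of -3.00 in CRISPR-Ptch1, -3.80 in GTML, -3.98 in MERP and -4.07 in Ptch1+/- tumours. Of all genes, 21.1%, 27.9%, 24.9% and 30.8% were lower in the same order. Ermn, which encodes a cytoskeletal protein of myelin, had -5.25 in CRISPR-Ptch1 (adjusted p = 8.68e-08) and -5.51 in GTML (adjusted p = 7.65e-09). Mobp, a myelin protein gene, had -4.79 and -5.29 in these groups (adjusted p = 0.000749 in CRISPR-Ptch1 and 9.21e-05 in GTML). Myrf, the regulator of the myelin programme, was nearest to the adult level, at -1.18 in CRISPR-Ptch1 (adjusted p = 0.000404) and -1.25 in GTML (adjusted p = 7.26e-05). The mean of the list was 7.69 and 7.84 in the EP tumours and 6.44 in the TF tumour, and in GTML it ran between 5.58 and 8.20. In GNPs 11 of the 12 were also lower than in adult cerebellum (median -2.77, with 21% of all genes lower). Against GNPs, 1 of the 12 was lower in CRISPR-Ptch1, 3 in GTML, 6 in MERP and 5 in Ptch1+/- tumours. Of all genes, 7.95%, 25.7%, 12.1% and 29.9% were lower in those pairs.

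**Figure D5:**
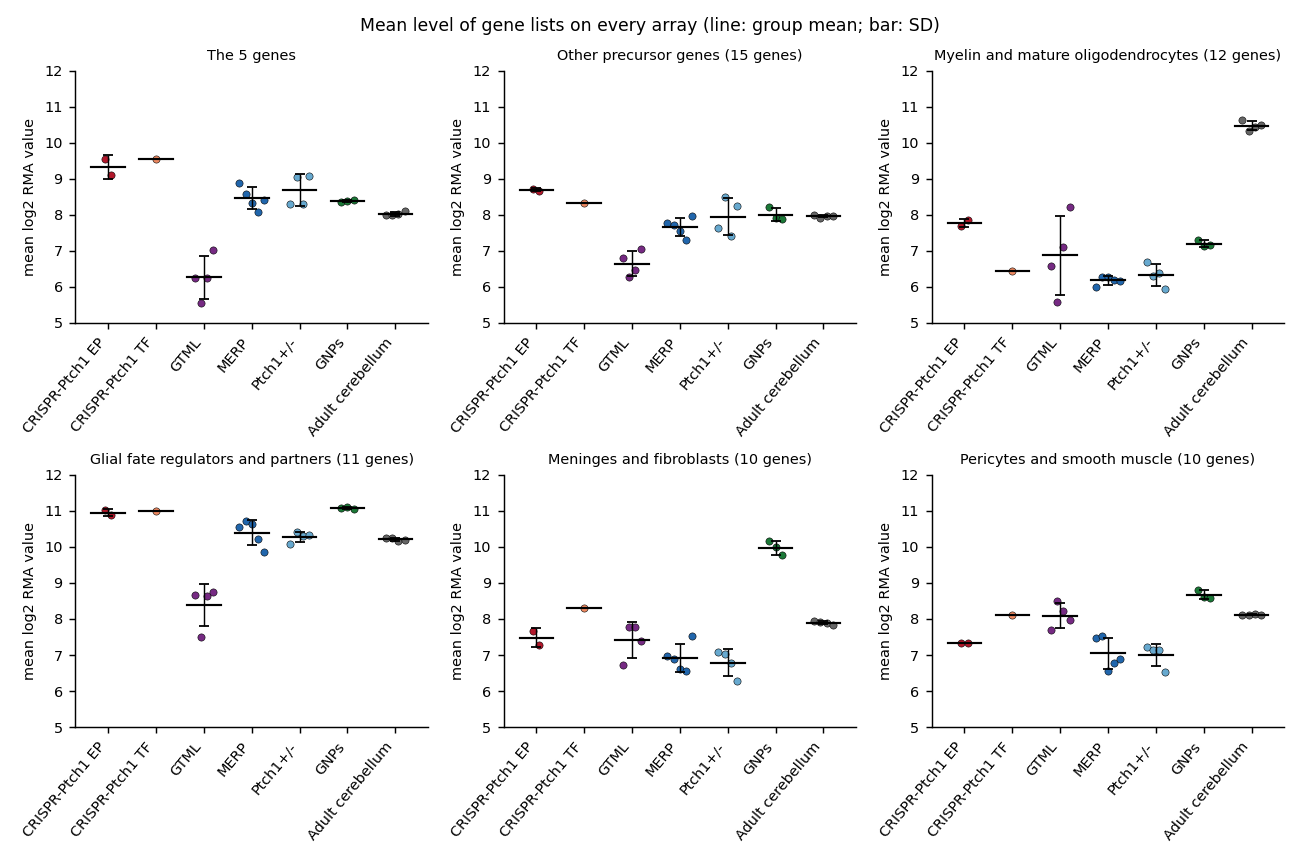
Mean log2 RMA value per array (vertical axis) of the 5 genes and of the gene lists named above each panel, by group, with the group mean and SD. GTML lies lowest for the 5 genes, the other precursor genes and the glial fate regulators, and adult cerebellum lies highest for myelin genes (10.33 to 10.63).

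Regulators of glial fate and helix-loop-helix partners, 11 measured of 12, were lower in GTML than in GNPs in 11 of 11 (median -2.93, against -0.01 over all genes), and higher in CRISPR-Ptch1 than in GTML tumours in 11 of 11 (median 3.10, against 0.01). Of all genes, 25.7% were lower in GTML than in GNPs and 22.7% higher in CRISPR-Ptch1 than in GTML. Id2, an inhibitor of helix-loop-helix factors, differed by 3.87 (adjusted p = 2.36e-08) and the progenitor factor Sox2 by 3.39 (adjusted p = 0.00107) between CRISPR-Ptch1 and GTML. The smallest differences were those of the RNA-binding Qk (1.26, adjusted p = 1.66e-07) and of Tcf12, an E-protein that pairs with helix-loop-helix factors (0.42, adjusted p = 0.00959). Between CRISPR-Ptch1 tumours and GNPs 0 of 11 were called by limma (median -0.16, 1 higher and 1 lower at an unadjusted p under 0.05), with Nfia at 0.55 (adjusted p = 0.164) and Id4 at -0.72 (adjusted p = 0.687). Of all genes, 5.79% were higher and 7.95% lower in this pair.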

How the data were processed

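RNA of 23 mouse samples was measured on Affymetrix mouse genome arrays. The deposited values are on a log2 scale and were made by the authors with Affymetrix Expression Console 1.3.1 by RMA, which corrects background, quantile-normalizes and summarizes probe sets. Which arrays were normalized together is not given in the sources used here. Values were used as deposited, 0 were missing and 0 sample columns were left unused. No detection calls were used, and the number of arrays limits the precision.

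The array has 45101 probe sets. A single gene is annotated for 34958, more than 1 for 932, and the other 9211 are unnamed here. A gene with several probe sets was represented by the one whose mean was highest (for Pdgfra 1 of 3, for Cspg4 1 of 2), leaving 18194 genes. Groups came from the sample titles. Linear models of all 6 groups together were fitted by limma 3.58.1 (R 4.3.3), with EP and TF tumours as 1 group and empirical Bayes variances. Benjamini-Hochberg adjustment ran over all genes of a pair. Scripts were tested on simulated data. The named genes are the 5 members, the 5 nearest to each by r over 23 arrays and the 3 nearest within groups, the PDGF genes, and of each list the 2 largest and 2 smallest changes of a pair described; of the nearest genes within groups, the first is printed. The members and lists were chosen with earlier results of these data known.

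Alternatives were other summaries of probe sets (mean, highest SD, each probe set alone), centring or quantile-normalizing again, leaving out dim genes (7.311 or more in at least 3 arrays, 10986 kept), a trended and robust variance prior, weights per array, a fit of just the pair in question, a minimum change of 2-fold, the EP or the TF tumours by themselves, the replicate number as a block and leaving out each array. Same-numbered samples of different groups are different animals, and their deviations from the group means correlated above 0.1 in 5 of 46 pairs (r between -0.26 and 0.23), so the numbers were not used as pairs. Sequences and coordinates are from RefSeq (GRCm38.p6). Tumours of other models of the study were not analysed here. Correlations were computed with numpy 2.4.6 in Python 3.11.15.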

Additional observations from a re-analysis of the deposited data

How the results depend on the processing

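Over the 15 pairs of groups, the number of called pairs was 6 for Olig1, 10 for Olig2, 10 for Nkx2-2, 9 for Pdgfra and 5 for Cspg4. Leaving out 1 array at a time gave 4 (without GNP replicate 1) to 10 (without GTML replicate 2) for Olig1, 8 to 11 for Olig2, 9 to 10 for Nkx2-2, 9 to 13 for Pdgfra (13 without GTML replicate 2) and 5 to 8 for Cspg4 (8 without Ptch1+/- replicate 1). With array weights, whose fit stopped before convergence, Olig1 had 11 and Cspg4 11. With only the 2 groups compared in the fit, Olig1 had 11 and Cspg4 9, while the Olig1 call in GTML over GNPs was lost (limma adjusted p = 0.127). Cspg4 had 9 with the mean of its probe sets, 9 with the probe set of highest SD, 9 with 1423341_at alone and 1 when at least a 2-fold change was asked. Among pairs called on 1 of the 2 probe sets compared, the signs that turned were those of Pdgfra in GTML over adult cerebellum (0.0757) and in CRISPR-Ptch1 over Ptch1+/- (-0.88), both with 1438946_at, which is also its probe set of highest SD, and that of Cspg4 in GTML over GNPs (-0.95) with 1423341_at, likewise its probe set of highest SD. Signs also turned in pairs called on neither, 3 for Pdgfra with 1438946_at, 2 with 1421916_at and 3 for Cspg4 with 1423341_at. The cause of these differences between probe sets was not tested.

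With the replicate number as a block, the counts were 5 for Olig1, 9 for Olig2, 9 for Nkx2-2, 9 for Pdgfra and 5 for Cspg4. The calls lost under the block were Olig1 and Olig2 in CRISPR-Ptch1 over GNPs (adjusted p = 0.0624 and 0.0539, limma) and Nkx2-2 in GTML over MERP (0.0514), and no other member call changed. With the TF tumour alone in place of the pooled CRISPR-Ptch1 group, Olig1 over GNPs was 2.27, against 2.16 with the pooled group. Cspg4 over adult cerebellum was 0.80, against 0.87, and Olig2 over Ptch1+/- was 1.67, against 0.86. A group of 1 sample has no spread of its own, so only sizes are given. Centring each array on the median of its genes, which was added once the data had been seen, changed 7 member calls, of which 1 was lost (Nkx2-2 in GTML over MERP, 0.0698). The gene medians of the arrays ran from 6.94 to 7.6. The count of all genes called in CRISPR-Ptch1 over MERP was 2428, against 1036 with only these 2 groups in the fit and 7338 with array weights, and in CRISPR-Ptch1 over GNPs it was 2500, against 9211 with array weights. Nkx2-2 could not be tested with dim genes left out.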

Other observations

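Olig3, a relative of Olig1 and Olig2 that acts in the dorsal neural tube and the rhombic lip, differed within the CRISPR-Ptch1 tumours more than the 5 genes did. It read 10.73 and 11.07 in the EP tumours and 4.26 in the TF tumour. It lay between 4.09 and 4.40 in GTML, 11.07 and 11.50 in MERP and 7.01 and 10.54 in Ptch1+/- tumours, against 6.22 to 6.74 in GNPs and 3.85 to 4.25 in adult cerebellum. The TF tumour thus stood with GTML and adult cerebellum for Olig3, while for Olig2 it was the highest of the 23 arrays (9.55). With 1 TF tumour there is no replicate check of this. Pooled, CRISPR-Ptch1 over adult cerebellum was 4.57 (SE 1.04, limma adjusted p = 0.000942) and MERP over adult cerebellum 7.11 (SE 0.92, adjusted p = 7.52e-07).

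Foxa2, the floor plate factor that lies ventral to Nkx2-2 in the neural tube, was between 8.89 and 9.77 in CRISPR-Ptch1, 4.71 and 5.49 in GTML, 7.51 and 10 in MERP and 5.56 and 6.85 in Ptch1+/- tumours, against 4.70 to 5.11 in GNPs and 4.62 to 5.19 in adult cerebellum. It was higher in CRISPR-Ptch1 than in GTML tumours by 4.25 (SE 0.40, adjusted p = 4.56e-08). Irx3, a patterning factor of the intermediate and dorsal neural tube, was lower than in adult cerebellum in CRISPR-Ptch1 tumours (-1.34, adjusted p = 1.92e-05) and in MERP (-2.95, adjusted p = 1.32e-11), and was higher in CRISPR-Ptch1 than in MERP by 1.61 (adjusted p = 6.2e-05). Of the 7 patterning factors, 3 were higher and 3 lower in CRISPR-Ptch1 tumours when set against adult cerebellum, with a median of -0.21 beside 0.02 over all genes, of which 26.4% were higher and 21.1% lower.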
